A study of Drosophila melanogaster with 14 samples.

Results

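The *dpr*, *DIP*, *beat* and *side* genes of *Drosophila* encode immunoglobulin-domain proteins of the neuronal cell surface. Here they were described in whole larval testes, with and without a knockdown of both lamins in part of the germline. Members were taken by symbol, as the genes whose names start with *dpr* and a digit, *DIP-*, *beat-* or *side*. This gave 53 of the 13776 genes quantified, namely 21 *dpr*, 10 *DIP*, 14 *beat* and 8 *side* genes, of which 47 lie on the 2L, 2R, 3L and 3R arms, 5 on the X and 1 on chromosome 4. The gene table held 54 such symbols, and the remaining one, *DIP-lambda*, had no row under its identifier and was not analysed here.

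RNA-seq was made from poly(A)+ RNA of testes of larvae in the third instar, about 200 testes per replicate. Control males carried *bam-Gal4-VP16* and gave 3 libraries. Lam-KD males carried *UAS-LamDm0-RNAi* over *bam-Gal4-VP16* together with 1 copy of *UAS-LamC-RNAi*, and also gave 3 libraries. The *bam* driver, present in both groups, acts in late spermatogonia (SpG) and spermatocytes (SpCs), so that hub, cyst and sheath cells, and fat body carried over at dissection, keep their lamins. The RNAi transgenes were present only in Lam-KD, and therefore strain background and loss of lamins cannot be told apart. Lamina-associated domains (LADs), the stretches of chromatin that contact the nuclear lamina, came from Lam-DamID in SpG of adult *bam∆86* testes with *nos-Cre* and in SpCs of larval testes of the third instar with *bam-Gal4-VP16*. These stages thus differ also in genotype, Dam construct and age of the males.

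Dpr proteins bind DIP proteins on opposing cells, and the combination of Dpr and DIP proteins that a neuron carries helps it to recognise its synaptic partners. In the same manner, Side is a transmembrane attractant on the substrates of growing motor axons and is recognised by the axonal protein Beat-Ia. Other Side and Beat proteins form a similar set of binding partners. None of the families has a textbook role in SpCs.

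Libraries held from 5651960 to 7437111 expected reads. Control replicate 3 stood apart from the other controls in its counts (chi-square per degree of freedom of 12.5 and 11.9 against them, in comparison with 5.13 between the other two and 2.31 to 4.08 among the Lam-KD libraries). Levels are given in TPM, a share of all transcripts that accounts for the length of the transcript. Transcripts of the targeted genes were lower in Lam-KD, with *Lam* at 84.5 ± 13.8 TPM in controls and 15.6 ± 0.973 TPM in Lam-KD, and *LamC* at 26.6 ± 6.69 and 8.27 ± 1.14 TPM (mean ± SD, n = 3). The SpC genes *Mst87F* and *dj* had the high control levels of 3243 ± 529 and 1198 ± 84.9 TPM (n = 3). The list of 11 neuronal markers had a median control level of 0.515 TPM, and 4 of them were over 1 TPM. Among them *elav* was at 0.262 ± 0.200 TPM and *brp*, the highest in controls, at 4.87 ± 0.471 TPM (n = 3). Of 5 glial markers 3 were over 1 TPM, with *repo* at 0.0303 ± 0.0526 TPM and *nrv2* at 197 ± 3.67 TPM (n = 3). RNA came from whole testes, so that fewer cells of a type and less RNA per cell cannot be told apart in any value below.

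Most members were barely transcribed in control testes, and a single gene supplied most of the RNA. The median control level was 0.351 TPM over the 53 members in comparison with 9.72 TPM over all genes. A mean control TPM over 1 was reached by 15 members (28.3%), and by 73.9% of all genes. Of these 15, 7 were *dpr*, 4 *DIP*, 2 *beat* and 2 *side* genes, and 3 members in all were over 10 TPM. *dpr17* alone made 76.1% of the control TPM of its family and 59.7% of that of all 4 families. *DIP-delta*, *beat-IIIc* and *side-V* made 79.6%, 40.5% and 52.5% of their families.

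*dpr17* was at 150, 165 and 175 TPM in control replicates 1, 2 and 3 and at 148, 151 and 147 TPM in Lam-KD replicates 1, 2 and 3. With this level, it exceeded 89.2% of all genes in control testes, and it rested on 2358 to 2855 reads per library. The groups overlapped. *DIP-delta*, in flies known as a partner of Dpr12, was at 33.0, 26.6 and 40.3 TPM in controls and at 26.6, 27.9 and 30.8 TPM in Lam-KD, overlapping as well. Its level per length rested on only 85 to 144 reads, as the length listed for it was short (882 to 894 nt).

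*dpr16*, also over 10 TPM, had 27.0, 26.8 and 18.8 TPM in controls and 26.0, 19.6 and 20.6 TPM in Lam-KD. It overlaps *CG12590*, *cno* and *CR46401* in the Release 6 gene table, and as it is not stated whether reads were counted by strand, its reads cannot be separated with certainty from theirs. *dpr3* was at 7.77, 8.63 and 8.75 TPM in controls and 6.08, 6.39 and 7.51 TPM in Lam-KD. *dpr4* was at 6.12, 6.78 and 6.91 TPM in controls and 5.53, 5.12 and 5.48 TPM in Lam-KD. For both genes each Lam-KD library lay below each control. *dpr3* contains *CG12674*, a gene with 198 TPM in controls, so that the same caution on overlapping reads holds for it.

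In the control order, *dpr17* (163 ± 12.3 TPM), *DIP-delta* (33.3 ± 6.85), *dpr16* (24.2 ± 4.68), *dpr3* (8.38 ± 0.535), *dpr4* (6.60 ± 0.425) and *side-V* (4.30 ± 0.381, all SD, n = 3) led. The libraries of *DIP-delta* and *dpr16* overlapped, and so did those of *side-V* with those of *beat-IIIc* (3.56 ± 1.20 TPM), whereas the other neighbours in this order did not. *beat-IIIc* was at 4.72, 2.34 and 3.63 TPM in controls and at 5.29, 4.12 and 4.94 TPM in Lam-KD. *side-V* was at 4.36, 4.65 and 3.89 TPM in controls and at 2.84, 3.57 and 3.56 TPM in Lam-KD, without overlap of the groups.

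At the other end, 31 members had a mean control TPM below 0.5. *beat-IIIa* had no read in any library, and *dpr2* had 3 reads in control replicate 1 and none elsewhere. *beat-Ia*, the receptor of Side in motor axons, was at 0.34, 0.43 and 0.64 TPM in controls and 0.45, 0.59 and 0.29 TPM in Lam-KD. *side* itself, named here after its values were seen, was at 0.150 ± 0.0585 TPM in controls and 0.194 ± 0.106 TPM in Lam-KD (n = 3). Both genes rested on 5 to 14 reads per library.

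**Figure D1:**
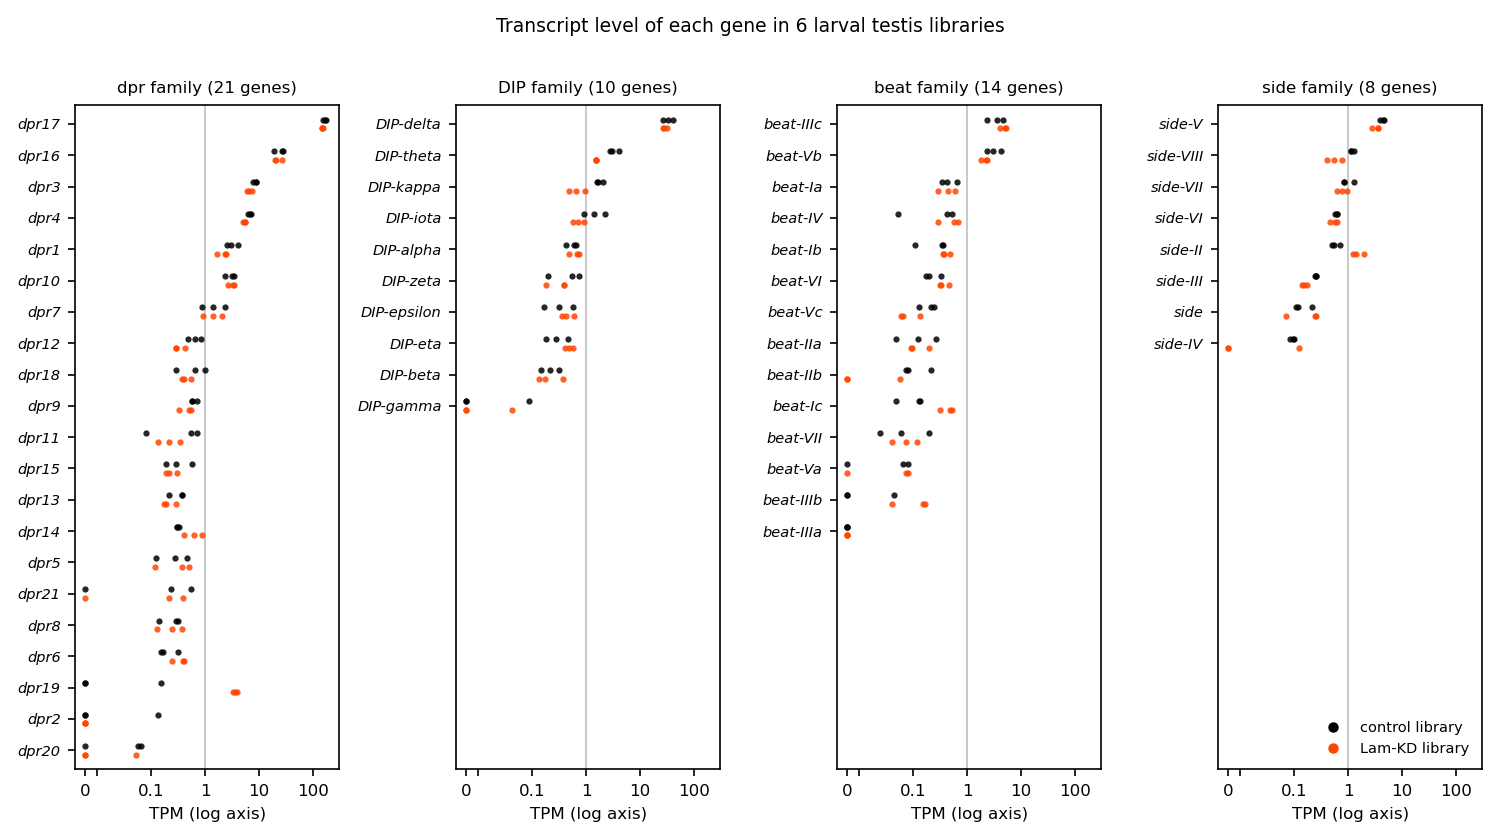
TPM on a log axis of each of the 53 genes, by family and in order of the control mean, with a point per library (control dark, Lam-KD orange) and values of 0 drawn at the left end marked 0. A grey line stands at 1 TPM, which 15 genes exceed in the control mean, *dpr17* lies apart at the top of the *dpr* panel, and *dpr19* is the gene whose groups lie farthest apart.

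Upon Lam-KD, *dpr19* and *side-II* rose, and *DIP-kappa*, *DIP-theta* and *side-VIII* fell. A gene was said to change when its adjusted *P* in edgeR's quasi-likelihood test (Benjamini-Hochberg over all genes tested) was under 0.05 and its mean TPM differed by over 1.5 times. With at least 10 reads required in at least 3 libraries, 29 members were tested (13 *dpr*, 6 *DIP*, 4 *beat* and 6 *side* genes), and 24 were not. The 2 members that rose stand beside 3.19% higher calls among all 10318 genes tested, and the 3 that fell beside 3.22% lower calls. Only 18 of the 29 had 10 reads in all 6 libraries, and *dpr19* and *dpr14* had 10 reads in no control library, so that they entered the test through Lam-KD alone.

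*dpr19*, one of the Dpr proteins, was nearly silent in control testes. It had 0, 0 and 0.15 TPM in control replicates 1, 2 and 3, from 0, 0 and 2 reads. In Lam-KD it had 3.83, 3.27 and 3.59 TPM, from 67, 53 and 59 reads. All 3 Lam-KD libraries were thus close to each other and far above each control. Summed over libraries, 179 reads stood against 2, a ratio per library reads of 78.0 with an exact 95% interval of 21.3 to 649, which covers counting error only. The fitted log2 fold change was 5.99 (SE 0.517, adjusted *P* = 4.70e-05, edgeR). It depends on these 2 reads of control replicate 3, and without that library the controls had no read and the adjusted *P* was 1.60e-06 (edgeR). No gene overlaps *dpr19* in the Release 6 gene table. With 3.56 ± 0.278 TPM in Lam-KD (n = 3), it moved to a level like that of *side-V* (3.32 ± 0.421 TPM in Lam-KD).

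*side-II*, a relative of the axon attractant Side, was at 0.50, 0.72 and 0.55 TPM in controls and at 1.26, 1.43 and 2.00 TPM in Lam-KD, from 21 to 24 and 56 to 84 reads. The groups did not overlap, Lam-KD replicate 3 being the highest. The mean rose 2.64-fold, with a fitted log2 fold change of 1.33 (SE 0.258, adjusted *P* = 0.00863, edgeR). *CG3491* overlaps it, at 22.8 TPM in controls and 26.5 TPM in Lam-KD with a log2 fold change of 0.14 (adjusted *P* = 0.325, edgeR). The caution on overlapping reads holds for *side-II* too.

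*DIP-theta* encodes a DIP protein, a receptor for Dpr proteins. It was at 2.75, 3.05 and 4.04 TPM in controls and at 1.517, 1.497 and 1.518 TPM in Lam-KD, from 51 to 77 and 31 to 34 reads. Control replicate 3 was the highest, and the groups did not overlap. The control mean was 2.17 times that of Lam-KD, and the log2 fold change was -1.21 (SE 0.233, adjusted *P* = 0.00821, edgeR) and -0.95 without control replicate 3 (adjusted *P* = 0.00908, edgeR). A non-coding RNA gene and the *mir-959* to *mir-964* genes overlap *DIP-theta*.

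*DIP-kappa*, another DIP gene, was at 1.64, 1.61 and 2.04 TPM in controls and at 0.48, 0.64 and 0.94 TPM in Lam-KD, from 25 to 36 and 10 to 19 reads. The control mean was 2.56 times that of Lam-KD, and the groups did not overlap. The log2 fold change was -1.40 (SE 0.318, adjusted *P* = 0.0184, edgeR). The call was lost without Lam-KD replicate 1 (adjusted *P* = 0.0858) or 2 (adjusted *P* = 0.0778, edgeR). *Gpo3*, which overlaps it, was at 144 TPM in controls and 129 TPM in Lam-KD (log2 fold change -0.26, adjusted *P* = 0.108, edgeR). Reads of *DIP-kappa* cannot be separated with certainty from those of *Gpo3*.

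*side-VIII*, of the *side* family, was at 1.31, 1.15 and 1.12 TPM in controls and at 0.56, 0.41 and 0.76 TPM in Lam-KD, from 34 to 44 and 16 to 23 reads, again without overlap. The control mean was 2.06 times that of Lam-KD, with a log2 fold change of -1.21 (SE 0.236, adjusted *P* = 0.00900, edgeR). It missed the threshold without Lam-KD replicate 2 (adjusted *P* = 0.0503, edgeR). Without control replicate 3, which stood apart, *side-II*, *DIP-kappa* and *side-VIII* kept their calls with log2 fold changes of 1.35, -1.21 and -1.18 (adjusted *P* = 0.00522, 0.0274 and 0.0106, edgeR).

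**Figure D2:**
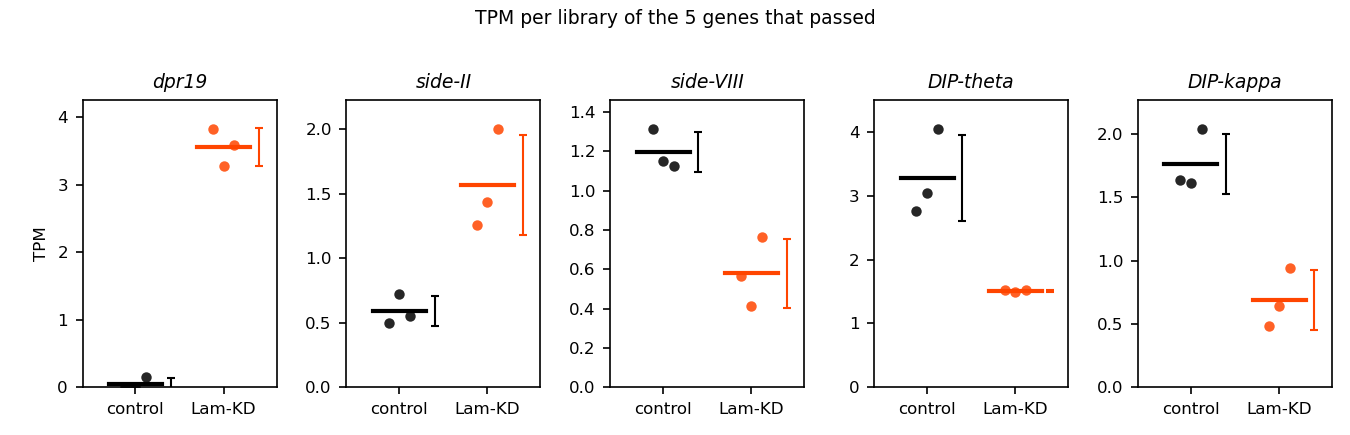
TPM per library of the 5 genes that passed the test, on axes that start at 0, with a point per library, a horizontal line at the mean and a bar of 1 SD to each side (n = 3 per group). In each panel the control and Lam-KD libraries do not overlap, with *dpr19* at 0 to 0.15 TPM in controls and 3.27 to 3.83 TPM in Lam-KD.

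The most abundant members did not pass. *dpr17* had a log2 fold change of -0.22 (SE 0.107, adjusted *P* = 0.167, edgeR) and *DIP-delta* of -0.32 (SE 0.185, adjusted *P* = 0.235, edgeR). For *dpr16* it was -0.20 (SE 0.136, adjusted *P* = 0.302, edgeR). *dpr3* and *dpr4* stood at -0.40 and -0.39 with adjusted *P* of 0.0911 and 0.0787 (edgeR), although their libraries did not overlap. In the *beat* family none of the 4 tested genes was called by edgeR or DESeq2, and 2 had an unadjusted *P* under 0.05. Of these, *beat-IIIc* had a log2 fold change of 0.42 (SE 0.179, adjusted *P* = 0.123, edgeR). *side-V* passed in adjusted *P* (0.0369, edgeR) with a log2 fold change of -0.46 (SE 0.125), but its control mean was only 1.29 times that of Lam-KD.

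Among the 29 tested members 22 were fitted below 0 and 7 above it, with a median log2 fold change of -0.32 (range -1.40 to 5.99). Over all 10318 genes, 4998 were below and 5320 above 0, with a median of 0.01. By family, the median was -0.22 for 13 *dpr*, -0.53 for 6 *DIP*, 0.13 for 4 *beat* and -0.46 for 6 *side* genes. The Lam-KD libraries lay entirely below the controls for 10 of the 29 members (15.6% of all genes tested) and entirely above for 3 (21.5%), namely *dpr19*, *side-II* and *dpr14*. Of these, *dpr19* and *dpr14* entered the test through Lam-KD alone, as did 72 of all 10318 genes. The read filter thus favoured their place above the controls and above 0, and they add nothing independent to these counts. *dpr14*, chosen after its values were seen, was at 0.31, 0.30 and 0.33 TPM in controls and 0.89, 0.63 and 0.41 TPM in Lam-KD (log2 fold change 1.15, SE 0.382, adjusted *P* = 0.0678, edgeR).

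**Figure D3:**
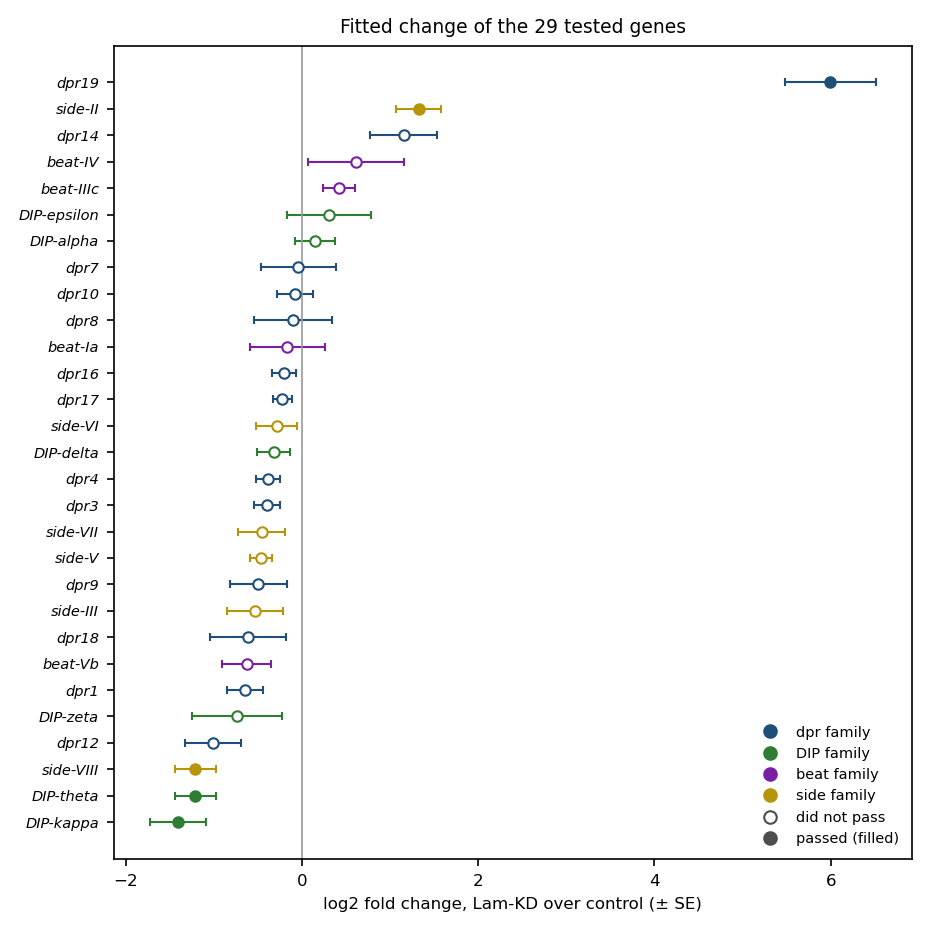
Log2 fold change of Lam-KD over control with its standard error for the 29 tested genes, coloured by family, filled where the gene passed the test. The genes run from *DIP-kappa* at -1.40 to *dpr19* at 5.99, 22 lie left of 0, and the 5 filled points are *dpr19*, *side-II*, *side-VIII*, *DIP-theta* and *DIP-kappa*.

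The summed level of a family in Lam-KD was between 0.800 and 1.09 times that of controls. The *dpr* genes together held 215 ± 9.83 TPM in controls and 197 ± 3.40 TPM in Lam-KD, a ratio of 0.916. The *DIP* genes held 41.9 ± 7.58 and 33.5 ± 2.46 TPM (ratio 0.800), the *beat* genes 8.79 ± 0.304 and 9.59 ± 0.770 TPM (ratio 1.09), and the *side* genes 8.19 ± 0.745 and 7.20 ± 0.825 TPM (ratio 0.879, SD, n = 3 throughout). These sums mostly follow the leading gene of each family. Without it, the ratio was 0.936 for *dpr*, 0.596 for *DIP*, 0.921 for *beat*, which turned its direction, and 0.997 for *side*.

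The 24 untested members reached at most 16 reads in a library and 2.23 TPM. They were left out by the read filter, and a fit without the filter held 23 of them, *beat-IIIa* being without reads, and called none by edgeR (2 had an unadjusted *P* under 0.05, and the lowest adjusted *P* was 0.0670). Among them *beat-Ic*, a *beat* gene next to *beat-Ia*, had 0.13, 0.05 and 0.13 TPM in controls and 0.52, 0.48 and 0.31 TPM in Lam-KD, from 5, 1 and 3 against 15, 12 and 8 reads. *DIP-iota* was at 2.23, 1.40 and 0.93 TPM in controls and at 0.91, 0.56 and 0.70 TPM in Lam-KD. The groups of neither gene overlapped, *beat-Ic* being higher and *DIP-iota* lower in Lam-KD. In the fit without the read filter, their log2 fold changes were 1.68 (SE 0.559, adjusted *P* = 0.0670, edgeR) and -1.12 (SE 0.500, adjusted *P* = 0.152, edgeR). *CG31820* and *CG13245*, at 2816 and 2055 TPM in controls, overlap *beat-Ic*. The caution on overlapping reads thus holds for the few reads of *beat-Ic* too.

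Other genes of neuronal recognition, a list of receptors and adhesion molecules from *Dscam1* to the Robo and Teneurin receptors, were taken beside the members. Of 46 listed genes 44 were found, of which 28 had a control TPM over 1 (15 of 53 members, a difference that was not tested), and 35 were tested. Of these *kirre* and *robo2* rose, and *unc-5*, *Ten-a*, *bdl* and *Nlg2* fell, with a median log2 fold change of -0.07. *Ten-a*, a teneurin of synaptic partner matching, went from 1.27 ± 0.267 to 0.347 ± 0.0772 TPM (log2 fold change -1.61, SE 0.203, adjusted *P* = 0.000724, edgeR). *kirre*, an adhesion protein also known from myoblast fusion, went from 0.919 ± 0.317 to 2.65 ± 0.735 TPM (log2 fold change 1.44, SE 0.266, adjusted *P* = 0.00675, edgeR). The most abundant of the list were *PlexA*, the receptor of Sema1a, at 35.5 ± 6.52 and 36.1 ± 2.96 TPM, and *Cont* at 20.1 ± 2.47 and 22.2 ± 1.52 TPM (n = 3).

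Markers of the other cells in the preparation were counted in the same way, and most of them did not pass. Of 11 neuronal markers found, 8 were tested, *Syt1* and *Appl* rose and *nSyb* and *brp* fell, and their sum was 15.0 to 18.3 TPM in controls and 18.5 to 21.8 TPM in Lam-KD. *Syt1*, a synaptic calcium sensor, went from 4.45 ± 0.584 to 10.3 ± 0.965 TPM, and *brp*, of the presynaptic active zone, from 4.87 ± 0.471 to 3.11 ± 0.153 TPM (n = 3). Thus the neuronal markers had no common direction. Of the fat body list *Lsp1gamma* fell among 6 genes, and the sum was 5917 to 8852 TPM in controls and 4732 to 7587 TPM in Lam-KD. Among 5 hemocyte genes *eater* fell (sum 13.9 to 26.4 and 13.4 to 16.6 TPM), and among 5 glial genes *Eaat1* fell (sum 202 to 209 and 195 to 198 TPM, nearly all of it from *nrv2* with 197 ± 3.67 and 189 ± 1.17 TPM). Of 6 muscle genes *Mhc* fell (sum 3.25 to 5.59 and 4.23 to 5.83 TPM), and of 5 cyst cell genes *tj* rose (sum 36.6 to 45.3 and 43.1 to 47.8 TPM). *tj* had a log2 fold change of 0.66 (SE 0.191, adjusted *P* = 0.0452, edgeR). The cyst cell gene *so* went the other way, from 6.34 ± 0.631 to 4.27 ± 0.255 TPM (n = 3). Its log2 fold change was -0.66 (SE 0.158, adjusted *P* = 0.0230, edgeR), and it missed only the 1.5-fold threshold. Thus the cyst cell markers had no common direction either. None of the 3 germline genes (sum 33.5 to 46.2 and 45.5 to 50.2 TPM), 7 SpC genes (sum 4547 to 5578 and 4353 to 4810 TPM) and 2 tracheal genes (sum 5.15 to 5.94 and 5.76 to 6.79 TPM) passed both thresholds. The SpC gene *sa* went from 149 ± 17.0 to 200 ± 8.99 TPM (n = 3). Its log2 fold change was 0.35 (SE 0.0837, adjusted *P* = 0.0226, edgeR), and it missed only the fold threshold. No listed marker was at 0 in all libraries. The part of these cells in the values of the 53 members was not tested.

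To see where these genes lie relative to the lamina, the positions of their transcription start sites (TSSs) were set against the LADs of SpG and SpCs. Positions on dm3 were at hand for 13 members, all on 2L, within 1998 genes of this arm. The members *beat-IIIa*, *beat-IIIb* and *beat-IIIc* also lie on 2L but were not among them. In SpG, 8 of the 13 TSSs were in LADs (61.5%) in comparison with 613 of 1998 (30.7%). In SpCs, 4 of 13 were in LADs (30.8%) in comparison with 647 of 1998 (32.4%). The 6 promoters of *DIP-iota*, *DIP-zeta*, *DIP-kappa*, *beat-Ia*, *beat-Ib* and *beat-Ic* were in LADs only in SpG, those of *dpr3* and *DIP-eta* only in SpCs, those of *DIP-theta* and *DIP-epsilon* at both stages, and those of *dpr19*, *dpr2* and *side-II* at neither. LADs were called on merged replicates, so that no error and no test can be given, and *beat-Ia*, *beat-Ib* and *beat-Ic* are neighbours.

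Some of these states rest on less than a bin of 300 bp. The TSS of *beat-Ia* lay 35 bp and that of *DIP-zeta* 63 bp inside a LAD border in SpG, and that of *DIP-eta* lay 146 bp outside in SpG and 154 bp inside in SpCs. In contrast, the TSS of *DIP-theta* was 10759 bp inside a LAD of 22.5 kb in SpG and 1459 bp inside one of 19.2 kb in SpCs. The *dpr3* promoter was in a LAD of 0.9 kb in SpCs, in a gene of 51.1 kb. The paper states that bins without Dam reads were left as gaps, so that real LADs are probably much larger. A TSS called outside LADs may therefore lie in such a gap. With LADs no more than 1200 bp apart joined, 9 TSSs were in LADs in SpG and 4 in SpCs.

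**Figure D4:**
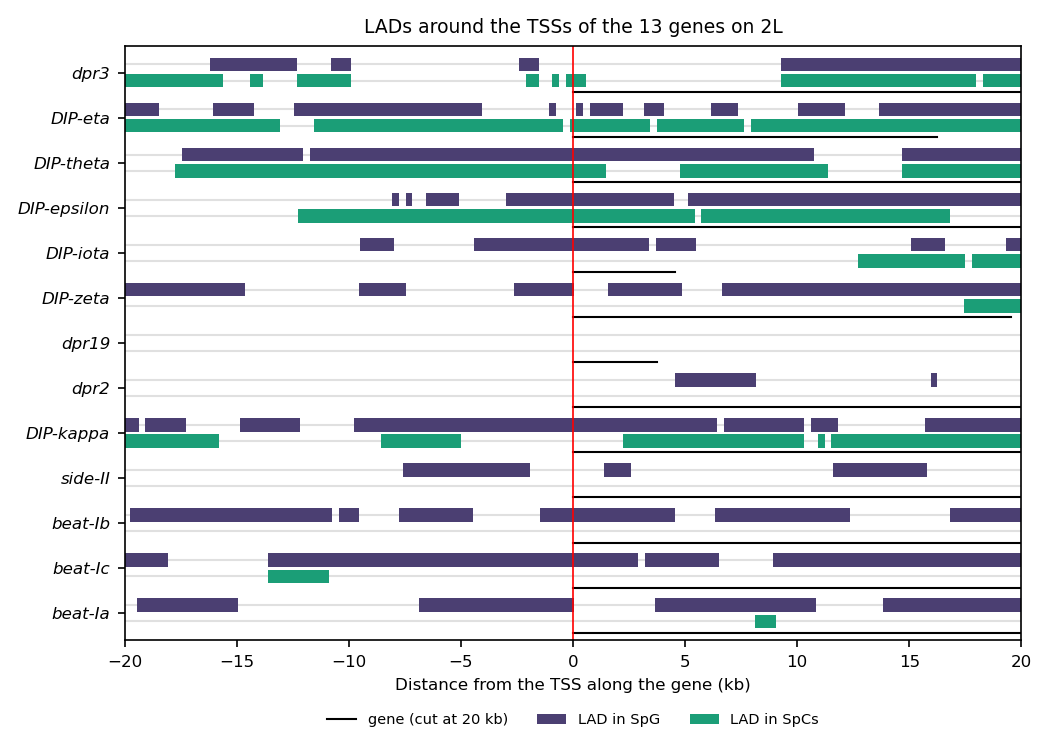
LADs within 20 kb to each side of the TSS (red line) of the 13 genes on 2L with a position at hand, oriented along the gene, for SpG (violet) and SpCs (green), with the gene body as a black line cut at 20 kb. In SpG 8 and in SpCs 4 LADs span the red line, *dpr19* has no LAD in the window at either stage, and around the 3 *beat-I* genes LADs are seen mainly in SpG.

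Gene bodies were taken in the same way. The median share of a gene inside LADs was 68.6% in SpG and 24.8% in SpCs over the 13 members. As these are long genes, from 3.74 to 64.8 kb, the 138 genes of at least 20 kb were taken beside the 9 members of that length. The 9 members are part of the 138 genes. The medians of the 138 genes were 68.0% and 61.7%, and those of the 9 members 68.6% and 28.7%. Together the 13 genes lay with 63.5% of their length in LADs in SpG and 42.1% in SpCs. The share was lower in SpCs for 8 of them and higher for 3. The same count was not made for other genes, and the paper reports lower LAD coverage in SpCs over the non-repetitive genome. Among the 8, *DIP-kappa* had nearly equal shares (69.3% in SpG and 69.0% in SpCs). With LADs no more than 1200 bp apart joined, its shares were 70.7% and 71.9%.

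The *beat-I* genes and *DIP-iota* and *DIP-zeta* gave the large differences. *beat-Ic* was covered to 60.6% in SpG and 0% in SpCs, *beat-Ia* to 65.4% and 8.15%, and *beat-Ib* to 68.6% and 28.7%. *DIP-iota* had 93.4% and 0%, and *DIP-zeta* 83.1% and 10.6%. *DIP-eta* went the other way, with 52.9% in SpG and 96.3% in SpCs, whereas *DIP-theta* had 74.9% at both stages. *dpr3* and *DIP-epsilon* were slightly more covered in SpCs (73.0% and 79.4%, and 83.9% and 89.3%).

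The fitted changes of these genes and their LAD states could be set side by side for the 4 called members on 2L. *dpr19* (dm3, chr2L:10376168-10379905, plus strand) lay outside LADs over its whole length at both stages, and its TSS was 72833 bp in SpG and 76433 bp in SpCs from the nearest LAD. *side-II* (chr2L:14907489-14972300, minus strand) had its TSS outside LADs at both stages, 1400 bp from a LAD in SpG and 41000 bp in SpCs, with 46.0% and 24.2% of the gene inside. *DIP-theta* (chr2L:5626291-5658560, minus strand) had its TSS in LADs at both stages. *DIP-kappa* (chr2L:13676860-13717320, minus strand) had its TSS 6419 bp inside a LAD in SpG and 2220 bp outside in SpCs, with 69.3% and 69.0% of the gene inside. Both members that rose had promoters outside LADs at both stages, as had 59.0% of the 1998 genes. The LAD state after Lam-KD was not measured.

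Members with low reads and promoters in LADs in SpCs were *DIP-eta* (0.308 ± 0.144 TPM in controls and 0.489 ± 0.0798 TPM in Lam-KD, under the read filter) and *DIP-epsilon* (0.352 ± 0.199 and 0.464 ± 0.128 TPM, log2 fold change 0.31, SE 0.477, adjusted *P* = 0.678, edgeR). Of the promoters that were in LADs only in SpG, *beat-Ia* had a log2 fold change of -0.17 (SE 0.428, adjusted *P* = 0.809, edgeR) and *DIP-zeta* of -0.74 (SE 0.509, adjusted *P* = 0.317, edgeR). *DIP-kappa* is given above, as are *DIP-iota* and *beat-Ic* with their fit without the read filter. *beat-Ib* was under the read filter, with 0.268 ± 0.139 and 0.407 ± 0.0684 TPM. The caution on overlapping reads holds for *beat-Ib*, which *CG13244* overlaps at 331 TPM in controls. It holds for *DIP-epsilon* as well, which *Nepl6* overlaps at 10.9 TPM. The 95% interval for *DIP-epsilon*, *beat-Ia* and *DIP-zeta* included 0.

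**Figure D5:**
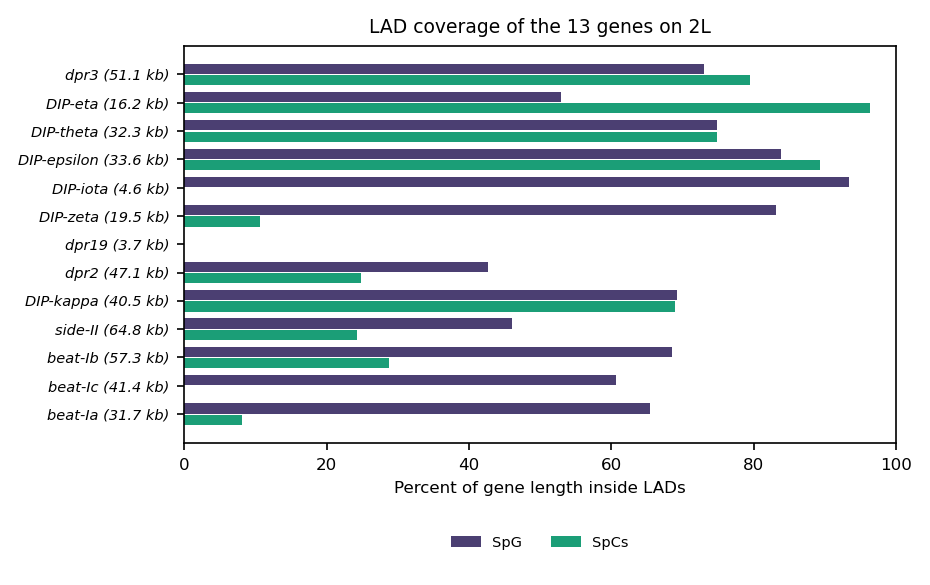
Percent of the length of each of the 13 genes on 2L with a position at hand that lies inside LADs in SpG (violet bars) and SpCs (green bars), with the gene length in kb beside the name. *dpr19* has no bar at either stage, *DIP-iota* and *beat-Ic* only in SpG, and *DIP-eta* reaches 96.3% in SpCs.

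The change of *dpr19* was not shared by the genes next to it. Of the 5 genes on each side 8 were tested, none rose by edgeR's test, *rho-5* fell (log2 fold change -0.86, SE 0.250, adjusted *P* = 0.0464), and the fitted values ranged from -0.86 to 0.21. Its direct neighbours *CG33303* and *gny* had values of 0.21 and 0.10. Around *side-II* all 10 genes were tested and *mol* fell, with values from -1.02 to 0.26. *CG4480* (log2 fold change -0.41, adjusted *P* = 0.0347, edgeR) missed only the fold threshold. Around *DIP-theta* 6 of 10 were tested and *CG7236* fell (log2 fold change -1.22, SE 0.148, adjusted *P* = 0.000594, edgeR). *CG14011*, *CG7251*, *CG18266* and *Hsp60C* were fitted at -0.25, -0.27, -0.18 and -0.22 and *CG12511* at 0.03. None of these had an adjusted *P* under 0.05 (edgeR). Around *DIP-kappa* 8 were tested and none passed both thresholds, with values from -0.48 to 0.13. Its direct neighbour *CG18507* (log2 fold change -0.48, adjusted *P* = 0.0268, edgeR) and *CG16853* (-0.38, adjusted *P* = 0.0409, edgeR) missed only the fold threshold.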

How the data were processed

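RNA-seq gene tables of 3 control and 3 Lam-KD libraries and LAD positions in SpG and SpCs were used. The authors deposited expected counts per gene, estimated with *Salmon* for the BDGP5.78 annotation and not normalized, and TPM values made from the same estimates. For LADs, the deposited positions are multiples of 300 bp on dm3/R5, from unique *Bowtie2* alignments counted with *HTSeq*, merged replicates, log2(Dam-Lam/Dam) and a hidden Markov model. Expected counts totalled 5651960 to 7437111 per library, fewer than the paired-end reads that the paper reports per sample, which leaves weak genes with wide errors.

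Expected counts were rounded and tested with edgeR 4.0.16 in R 4.3.3 (quasi-likelihood, TMM, at least 10 reads in at least 3 libraries, *Lam* and *LamC* left out). The thresholds were an adjusted *P* of 0.05 (Benjamini-Hochberg) and a 1.5-fold change of mean TPM. The SE is the log2 fold change over the square root of *F*. Alternatives were DESeq2 1.42.0, other scalings, filters and thresholds, a replicate block, and each library left out. Other steps used Python 3.11.15 and pandas 2.3.3.

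Symbols came from the reference gene table for 13483 of 13776 identifiers, and names of overlapping genes from Release 6. Of the listed genes, *Fas1*, *hbs*, *para*, *wupA*, *btl* and *vas* were not matched and were not used here. TSS and gene positions were those of the annotation that accompanies the study on dm3, of which 1998 genes of 2L were at hand. The members and lists were chosen with earlier results of these data known. Named members are those called, the 5 highest by mean TPM, the highest of each family, those on 2L with a TSS position, and those without a read. Named other genes are the targets, those called in the lists and the 2 highest of a list, and neighbours of called members were added afterwards. The labels call the libraries biological replicates. *P*-values measure only the spread between these 3 and 3 samples.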

Additional observations from a re-analysis of the deposited data

How the results depend on the processing

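Few reads limit these results: the called members had from 0 to 84 reads in a library, and 24 members were left out by the read filter. Of 2 members higher and 3 lower, the same 2 and 3 genes were called with DESeq2, other scalings, other filters and the fold of the fit. Leaving out a library kept *dpr19*, *side-II* and *DIP-theta* and gave 2 members higher each time and from 1 to 5 lower. The lowest was without Lam-KD replicate 2 (*DIP-theta* alone) and the highest without control replicate 3 (*dpr1* and *dpr12* added). Over all genes these ranges were 193 to 497 higher and 196 to 342 lower, and with no fold threshold 548 and 757. The causes were not tested. Whether replicate numbers pair the libraries could not be settled. Deviations of equal numbers correlated with r of 0.0592, 0.0732 and 0.177, and those of unequal numbers with r from -0.156 to 0.107. The highest of the latter was control replicate 1 with Lam-KD replicate 2. With the replicate block, 423 genes were higher and 404 lower, and 3 and 4 members, *dpr14* and *dpr12* being added.

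The median log2 fold change of the members was -0.25 with library totals alone, -0.29 with no filter, -0.39 with a mean of at least 10 reads, and -0.40 to -0.28 when a library was left out. With TMM-normalized CPM summed in place of TPM, the ratio of sums was 0.862 for *dpr*, 0.709 for *DIP* and 1.18 for *beat*. CPM does not account for the length of the transcript, so long transcripts weigh more in these sums. After a median-of-ratios scaling of TPM, the ratio of summed TPM was 0.850 for *dpr* and 0.736 for *DIP*. Without the highest gene the ratio of summed unscaled TPM was 0.936 for *dpr*, 0.596 for *DIP*, 0.921 for *beat* and 0.997 for *side*. When a library was left out it ran from 0.892 to 0.929 for *dpr*, 0.736 to 0.883 for *DIP*, 1.04 to 1.12 for *beat* and 0.825 to 0.925 for *side*. Among genes that were not called, *DIP-epsilon* ranged from -0.083 (without control replicate 1) to 0.92 and *beat-Ia* from -0.40 to 0.21 when a library was left out, so that their sign changed. With a distance of 300 bp counted as inside, 9 TSSs were in LADs in SpG, and SpCs stayed at 4.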
